A study of Homo sapiens with 2 samples.

Results

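CD44 and CD24 are cell surface glycoproteins, and their transcripts held 4 of the 647 peaks in an acRIP-seq comparison of A549 cells, a human lung adenocarcinoma line. The members were found as the rows of the deposited peak table whose gene symbol is CD44 or CD24, which gave 2 peaks for each gene among 489 gene symbols. In acRIP-seq, RNA fragments that carry N4-acetylcytosine (ac4C) are captured with an antibody and sequenced. A peak marks bases of a transcript where the capture yields more reads than the uncaptured input. The comparison had 1 library of wild-type cells (WT) and 1 library of a line in which NAT10, the enzyme that writes ac4C, was knocked out with CRISPR/Cas9 (NAT10-KO). The knockout line grew from a single-cell clone, and both groups share the A549 background with no other treatment in the labels, so the knockout and the clone cannot be told apart. NAT10 itself was not analysed here, and the knockout label was not checked from these data.

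The pair was chosen by the deposited log2 fold changes between the libraries, which were known beforehand, so these changes are given as a description and support nothing further. The sign is taken as NAT10-KO relative to WT, because every gene that the study's supplementary list gives as reduced has a listed peak below -1. Neither CD24 nor CD44 is on that list, although 1 CD24 peak was at -1.20. The list was used for the sign only and does not back the changes of either gene. The table holds 1 value per peak for both libraries together. Single-library values and read counts were not analysed here. The read depth of each peak is therefore unknown, and there was no replicate to check a difference. The test behind the difference p printed below is not given in the sources used here. With 1 library per group, that p cannot measure the spread between replicates and does not compare the conditions. In bulk RNA, fewer modified molecules per cell and fewer cells that carry them cannot be told apart, nor can a change of the capture and a change of the input.

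CD44 is the main receptor for hyaluronan, a sugar polymer of the extracellular matrix, and its short cytoplasmic tail is tied to the actin cortex through ezrin, radixin and moesin. Its pre-mRNA is spliced into many isoforms that differ in a block of variable exons of the extracellular stem. CD24 is a small, heavily glycosylated protein held in the membrane by a lipid (GPI) anchor, and it serves as a ligand of P-selectin and of the inhibitory receptor SIGLEC10. Both are widely used together to sort tumor cells by their surface phenotype.

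Both CD44 peaks lay close together near the 3' end of the gene and both were weakly enriched. CD44 (ENSG00000026508) runs on the plus strand of chromosome 11 from 35139171 to 35232402 in the RefSeq annotation of GRCh38.p14. Its first peak, at chr11:35229170-35229289, was assigned to the CDS. The second peak, at chr11:35229499-35229649, was assigned to the 3'UTR and ended 2753 bases before the end of the gene. The peaks were 120 and 151 bases wide, each was a single block, and 209 bases separated them. No listed peak of another gene overlapped the 93232 bases of the gene.

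At the CD44 CDS peak the log2 fold change was -0.12, which is 0.919 times the WT value on the linear scale. This value equalled the median of the 273 CDS peaks of the table, with 135 of them lower and 136 higher. The deposited difference p was 0.309 and its adjusted value 0.372. The 3'UTR peak of CD44 had a log2 fold change of -0.58, which is 0.670 times the WT value, with a difference p of 0.00229 and an adjusted p of 0.00603. Among the 214 peaks in 3'UTRs, 39 were lower than that and 174 were higher, against a median of 0.38 for the class. Both CD44 peaks were below 0 and neither was past a log2 size of 1.

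CD24 also had its peaks at the 3' end, but they stood on opposite sides of 0. CD24 (ENSG00000272398) is encoded on the minus strand of chromosome 6, between 106969831 and 106976855, a gene of 7025 bases. Both peaks were single blocks assigned to the 3'UTR, and 833 bases separated them. The upstream peak, at chr6:106970903-106971171, was 269 bases wide and lay 1072 bases before the end of the gene. The downstream peak, at chr6:106969950-106970069, was 120 bases wide and lay 119 bases before it.

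At the upstream CD24 peak the log2 fold change was -1.20, which is 0.435 times the WT value. Of all 647 peaks, 104 were lower than this and 541 were higher. The deposited difference p was 5.75e-06 and the adjusted p was 2.88e-05. At the downstream CD24 peak the log2 fold change was 1.49, which is 2.81 times the WT value, with a difference p of 0.0257. Its adjusted p of 0.0490 lay just under 0.05. Only 69 of 647 peaks were higher than this one. Within the same gene, then, the deposited change was below 0 at the upstream peak and above 0 at the downstream peak. Whether both peaks lie on the same transcript isoform was not tested. The mean of both log2 changes was 0.145, against a median of 0.06 over the gene means of the table.

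**Figure D1:**
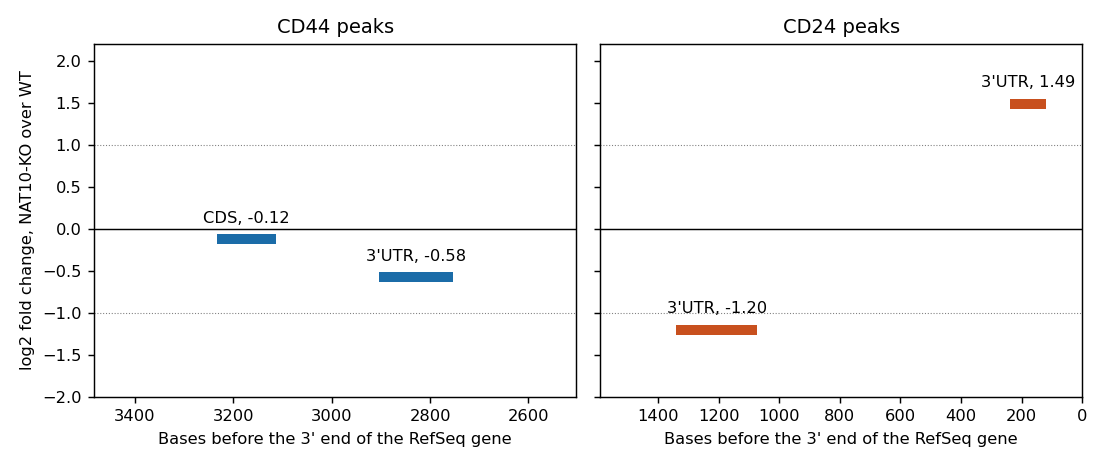
Position and change of the CD44 (left) and CD24 (right) peaks. The x axis gives bases before the 3' end of the RefSeq gene, decreasing towards the end, and the y axis the log2 fold change of NAT10-KO over WT; each bar spans 1 peak, its thickness carries no value, and dotted lines mark a log2 size of 1. The CD44 bars sit at -0.12 and -0.58, and the CD24 bars at -1.20 upstream and 1.49 downstream.

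Counted by size, 1 of the 4 peaks was below -1 and 1 was above 1, both on CD24. Over all listed peaks, 18.7% were below -1 and 17.5% above 1. With a difference p under 0.05 in place of the size, 2 of the 4 peaks were below 0, against 23.3% of all peaks, and 1 was above 0, against 30.3%. The choice of the pair used this contrast, and nothing is read from these shares.

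Enrichment over input, deposited as a separate value from the change, differed between both genes. It may rest on the same reads as the change, so it is not independent of it. Fold enrichment ran from 1.13 to 203 over the table with a median of 2.24. CD44 lay at the bottom of this range, with 1.25 at its CDS peak and 1.17 at its 3'UTR peak. Only 20 and 6 of the 647 peaks had a lower enrichment. The p of enrichment was 3.6e-05 at the CDS peak and 6.0e-04 at the 3'UTR peak. After adjustment it was 0.0102 at the former and 0.146 at the latter. The 3'UTR peak of CD44, the one with the larger change, was thus among the 157 listed peaks (24.3%) whose adjusted enrichment p was not under 0.05.

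The CD24 peaks were more enriched than those of CD44. The downstream peak had a fold enrichment of 2.14, close to the median of the table, with 298 peaks lower. Its enrichment p was 5.8e-06, or 0.00174 after adjustment. The upstream peak had a fold enrichment of 1.49, with 84 peaks lower, and the smallest enrichment p of the 4 peaks at 6.3e-11, or 3.02e-08 after adjustment. The higher peak of CD24 in the knockout library was therefore also its more enriched one, while the lower peak was wider and had the smaller p. How reads of each library entered the enrichment is not stated in the sources used here, so no level of enrichment in WT alone can be given.

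**Figure D2:**
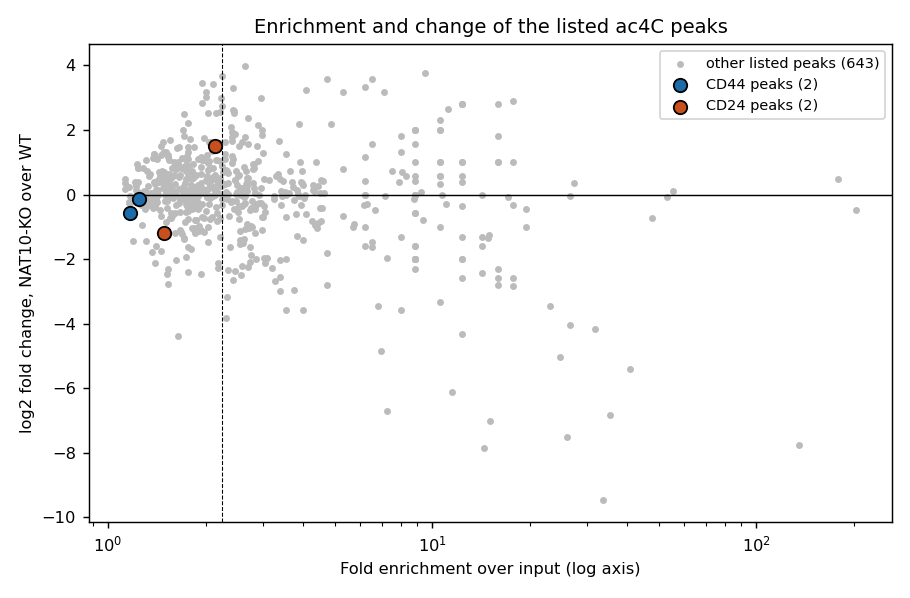
Fold enrichment over input (x axis, log scale) against the log2 fold change of NAT10-KO over WT (y axis) for all 647 peaks, 1 point each; the dashed line is the median enrichment of 2.24. The CD44 points lie at the left edge, at 1.17 and 1.25, and the CD24 points at 1.49 below 0 and at 2.14 above 0.

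Whether peaks of a gene stood together or apart was then read against all 103 genes with 2 or more listed peaks. Peaks on both sides of 0, as in CD24, were found in 52 of these genes (50.5%). In 20 genes, CD44 among them, all peaks were below 0, and in 30 all were above 0. Opposite signs alone were therefore common in the table. Peaks below -1 and above 1 within the same gene were found in 3 of the 103 genes (2.91%). These were CD24, RAD50 and EIF2S2, the last of which was named after its values were seen.

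The gap between the lowest and the highest peak of a gene was computed for the same genes. For CD24 the gap was 2.69 on the log2 scale, a 6.45-fold difference between stretches of 1 gene. It was larger in 9 of the 103 genes and smaller in 93. For CD44 the gap was 0.456, with 68 genes above it and 34 below, and the median of the 103 genes was 0.93. Among the 73 genes with exactly 2 peaks, 6 had a larger gap than CD24 and 45 a larger gap than CD44.

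**Figure D3:**
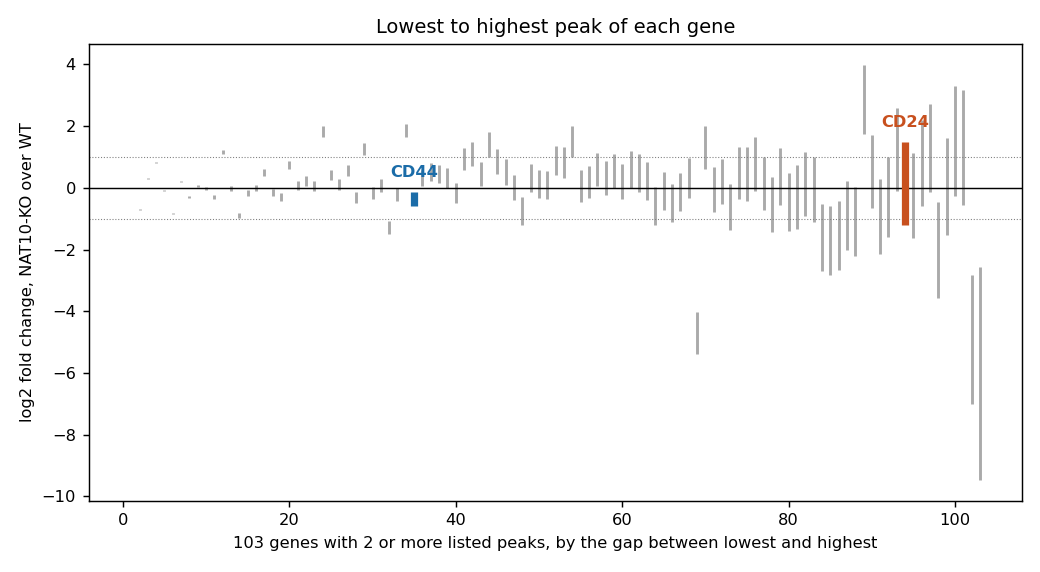
Lowest to highest log2 fold change (y axis, NAT10-KO over WT) of each of the 103 genes with 2 or more listed peaks, 1 vertical line per gene, ordered along the x axis by the length of the line. The line of CD44 runs from -0.58 to -0.12 and that of CD24 from -1.20 to 1.49, across both dotted lines at a log2 size of 1.

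The genes nearest to each member in lowest and highest log2 fold change were taken among the same 103 genes, by Euclidean distance over this 1 comparison. Nearest to CD44 were HSPA8, a constitutive heat shock chaperone, at a distance of 0.0851, and TM4SF1, a membrane protein of the L6 family, at 0.162. The peaks of TM4SF1 ran from -0.42 to -0.17. Nearest to CD24 were RAD50, a subunit of a DNA break repair complex, at 0.355, SMC4, a condensin subunit, at 0.441, and UACA, an ankyrin repeat protein, at 0.50. The peaks of RAD50 ran from -1.53 to 1.62. HSPA8, TM4SF1 and RAD50 had 3 peaks each, SMC4 had 5 and UACA 2, against 2 for each member. The ranges compared thus rest on unlike numbers of peaks, and the part of peak number in the likeness was not tested.

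The order of the CD24 peaks along the gene was compared with that in the other genes with exactly 2 peaks in the 3'UTR. This comparison was chosen after the values were seen. There were 20 such genes, CD24 included. In 16 of them the peak nearer the 3' end had the higher log2 fold change, and in 4 the lower one. The median of the downstream minus the upstream change was 0.97, against 2.69 for CD24. A larger positive difference was found in RAD21, from -0.265 upstream to 3.29 downstream, and in ALG12, from -3.58 to -0.447. Both ALG12 peaks were thus below 0, unlike those of CD24. In 9 of the 20 genes the upstream peak was below 0 and the downstream peak above 0, but CD24 was the 1 gene with both past a log2 size of 1. When peaks with a difference p of 0.05 or more were left out before pairing, 8 genes had exactly 2 peaks left in the 3'UTR. The downstream one was higher in 5 of them. Not all of the 8 were among the 20, since a gene with more 3'UTR peaks could be left with 2. From the 20, the downstream peak was higher in CD24, YWHAQ, CYP24A1 and ALDH1A1, and lower in ARL6IP1, TPT1 and EIF1AX. Over the 20 genes, the stretch between the peaks ran from 58 to 3054 bases, with a median of 416.5. The 833 bases of CD24 lay within this range.

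CD44 has a CDS peak and a 3'UTR peak, so it was set beside the 30 genes with peaks in both regions, itself included. Where a region held several peaks their mean was taken. The 3'UTR was higher than the CDS in 19 of these genes and lower in 11, and the median difference was 0.40. In CD44 the 3'UTR was the lower one, with a difference of -0.46, and 4 genes had a lower value.

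Partners of CD44 and CD24 were looked up in 3 gene lists. Of 23 genes of the hyaluronan axis, 2 had a peak. Most of the 23 make, cut or bind hyaluronan, bind CD44 or shed it, and the rest include ESRP1, ESRP2 and TIMP1. RDX encodes radixin, which links the CD44 tail to actin. RDX, like CD24, was among the 52 of 103 genes (50.5%) with peaks on both sides of 0. Its 3'UTR peak had a log2 fold change of 3.17, with a difference p of 0.00363, and its exon peak one of -0.56, with a difference p of 0.0525. The gap of RDX was thus wider than that of CD24. ADAM10, a protease that sheds the CD44 ectodomain, had 1 peak at -0.28 with a difference p of 0.301.

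Of 23 GPI-anchored proteins and CD24 ligands, 2 had a peak. PRNP, the prion protein, had a 3'UTR peak at 1.78 with a difference p of 2.45e-05. FOLR1, the GPI-anchored folate receptor, had a CDS peak at -5.04, but with a difference p of 0.110. Its fold enrichment of 24.8 was far above those of CD24.

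Of 42 other surface glycoproteins and adhesion receptors, 4 had a peak, each above 0, as were 334 of all 647 peaks (51.6%). CD164, a sialomucin like CD24 in its dense glycosylation, was at 2.82 with a difference p of 3.39e-05. ITGB1, the integrin beta1 chain, was at 0.40 with a difference p of 3.16e-36. CD82, a tetraspanin, was at 3.58 with a difference p of 0.183, and CD46, a complement regulator, was at 0.07 with a difference p of 0.551. Over the 3 lists together, 3 of 9 peaks were below 0 and 6 above it, with a median log2 fold change of 0.40 against 0.05 over all 647 peaks. The difference p was under 0.05 at 0 of the 3 peaks below 0 and at 4 of the 6 above 0. Over the whole table it was so at 151 of 302 peaks below 0 (50%) and at 196 of 334 above 0 (58.7%). With 9 peaks, the lists are described by these counts only.

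Peaks of cell type marker lists were also counted. These lists were chosen with earlier results of these data known, and several peaks can come from the same gene. The counts are therefore a description and no check of the cell type. Of 15 genes typical of A549, namely keratins, epithelial adhesion genes and targets of NRF2, 7 had 14 peaks (KRT19, TXNRD1, ALDH1A1, AKR1B10, AKR1C2, AKR1C3 and NQO1), with log2 fold changes from -0.72 to 1.23. Of 18 smooth muscle and connective tissue genes, typical of other cell types than epithelium, 7 had 16 peaks (MYH11, DES, ACTG2, TAGLN, MYL9, SYNPO2 and SYNM). All 16 were below 0, from -9.47 to -0.33, with fold enrichments from 3.42 to 135, and 8 of them had a difference p under 0.05. Of all 647 peaks, 302 (46.7%) were below 0. Of 7 blood and endothelial genes, CD68 had 1 peak at -1.26. All 4 CD44 and CD24 peaks were less enriched than every peak of the smooth muscle list, and the part of such RNA in their changes was not tested.

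No other listed peak and no other RefSeq gene overlapped any of the 4 peaks. RefSeq names 5 pseudogenes of CD24, and 0 of them had a listed peak, but how reads shared with them were placed is not stated in the sources used here, so the CD24 values are uncertain in that respect.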

How the data were processed

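The acRIP-seq libraries of A549 cells, 1 WT and 1 NAT10-KO, were grouped by their sample titles. The submitters' processing notes name STAR 2.7.10a and hg38; the peak caller and its test are not given in the sources used here. The authors deposited 1 table of peaks for both libraries. It gives the fold enrichment over input as a ratio. The authors deposited its p-value and, as a score, the log10 adjusted p. For the difference between the libraries, the authors deposited a log2 fold change and its log10 p and log10 adjusted p as scores; these were copied and not recomputed. For the 616 peaks with an enrichment p above 0, that p equalled 10 to the power of the log column within 0.05 in log10. The difference p was also read as log10; adjusted by Benjamini-Hochberg, it differed from the deposited adjusted p by a median of 0.0334 in log10.

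Starts were read as counted from 0, since the end minus the start equalled the block length in all 411 peaks of 1 block, and are printed counted from 1. Peaks were matched to genes by symbol and to RefSeq (GRCh38.p14) gene limits. Counts, ranks, gaps and distances were computed in Python 3.11.15 with numpy 2.4.6, pandas 2.3.3 and scipy 1.17.1, and tested on simulated tables. No test was made, since each group has 1 library. The members and the gene lists were chosen with earlier results of these data known. Genes named are the members, list genes with a peak and the 3 nearest genes to each member, 1 of which is not reported here; others were named after their values were seen. Alternatives were other sizes of change, the difference p, an enrichment minimum of 2, overlapping peaks reduced to 1, and other backgrounds.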

Additional observations from a re-analysis of the deposited data

How the results depend on the processing

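No read depth was used, so no interval can be given for a single peak. A log2 size of 0.5 in place of 1 counted 1 CD44 peak and, as with 1, 2 CD24 peaks. A size of 1.5 counted 0 CD24 peaks, as its changes of -1.20 and 1.49 are both smaller in size. With the difference p or its adjusted value required as well, the counts of both genes were unchanged. A peak had a lower enrichment than the best CD44 peak in 3.09% of the table, and in 1.84% with 1 value per gene. For CD24 the share was 46.1%, which became 41.1% among 3'UTR peaks and 40.1% with 1 value per gene. With only peaks of a difference p under 0.05, 18 of 51 genes had peaks on both sides of 0 and 0 peaks of the surface lists were below 0. With a fold enrichment of 2 or more, 21 of 42 genes had peaks on both sides of 0 and 1 gene had peaks past 1 in both directions; CD24 was not that gene, since its upstream peak is under 2. With that minimum, 6 genes had exactly 2 peaks in the 3'UTR, with the downstream peak higher in 5. With only peaks of a difference p under 0.05, 8 genes did, not all of them among the 20 of the main comparison. The downstream peak was higher in 5 of these 8. These last alternatives, and leaving out the smooth muscle and connective tissue genes, were added after seeing the data; the latter gave 52 of 100 genes on both sides of 0. A CD44 gap could not be had with an enrichment of 2 or more or a difference p under 0.05, nor a CD24 gap with the former, since fewer than 2 peaks were left. No paired analysis was possible because WT and NAT10-KO were each sequenced in 1 library.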
